A study of Mus musculus with 33 samples.

Results

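Messenger RNA levels of 7 genes of cholesterol synthesis and turnover were examined in the CA1 region of the mouse hippocampus. The genes were chosen by name, as Hmgcs1, Idi1, Fdft1, Sqle, Srebf2, Insig1 and Cyp46a1, and all 7 were found among the 38355 genes of the count files and the 40678 loci of the FPKM files. The study asked how JQ1, a compound that keeps BET proteins from binding acetylated histones, changes gene expression in WT mice and in APP mice, a model of amyloid pathology. CA1 was dissected 24 h after the probe test of a water maze, and RNA-Seq libraries were made from total RNA. The APP/PS1-21 line carries mutant human transgenes, APP among them, under the Thy1 promoter, which is active in neurons, on a C57B/6 background. The aged mice, females of 8 to 10 months, formed 3 groups, namely 6 APP mice given JQ1 intraperitoneally at 50 mg/kg over 10 days, 6 APP mice given vehicle with 10% DMSO over 10 days, and WT mice given the same vehicle, of which 4 were analysed here. Titles name these mice WT, although their strain field carries the APP/PS1-21 line. The young mice were C57B/6JRj males of 3 months, 8 given JQ1 at 50 mg/kg and 8 given vehicle with 10% DMSO, over 13 days. The labels number the libraries without naming animals or cultures, so p-values measure only the spread between these libraries.

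Cholesterol in the brain is made locally, because lipoproteins of the blood do not cross the blood-brain barrier. Synthesis runs through the mevalonate pathway, where HMGCS1 makes HMG-CoA and IDI1 interconverts the isoprenoid building blocks, to squalene, which FDFT1 makes and SQLE oxidizes at the first oxygen-requiring step of sterol synthesis. SREBF2 encodes SREBP2, the transcription factor that activates the genes of synthesis and uptake when sterols are low, and INSIG1 holds its precursor in the endoplasmic reticulum when sterols are abundant. CYP46A1, the cholesterol 24-hydroxylase of neurons, turns cholesterol into 24S-hydroxycholesterol, the main form in which cholesterol leaves the brain.

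In the mm10 build the 7 genes are all protein-coding. The mevalonate enzymes Hmgcs1 (ENSMUSG00000093930) and Idi1 (ENSMUSG00000058258) lie at chr13:119690379-119708260 and chr13:8885501-8892451, both on the plus strand. Of the squalene enzymes, Fdft1 (ENSMUSG00000021273) lies at chr14:63145150-63179578 on the minus strand and Sqle (ENSMUSG00000022351) at chr15:59315077-59331192 on the plus strand. The regulators Srebf2 (ENSMUSG00000022463) and Insig1 (ENSMUSG00000045294) lie at chr15:82147181-82205379 and chr5:28071363-28078662, and Cyp46a1 (ENSMUSG00000021259) at chr12:108334381-108362234, all on the plus strand.

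The promoter windows of 4 members are shown because SREBP2 acts at promoters of this pathway and because synthesis genes, their regulators and the turnover gene can be compared letter by letter. RefSeq windows of the GRCm38.p6 build, from 250 bases before to 50 bases after the start, were matched for 5 of the 7 members, namely these 4 and Idi1, and a gene may have further windows. Capitals mark matches to TCACNCCAC, the core of the sterol regulatory element bound by SREBP, and to CCAAT, the box bound by NF-Y, each searched on both strands, so that ATTGG is CCAAT on the minus strand.
Hmgcs1, chr13:119690101-119690400, plus strand: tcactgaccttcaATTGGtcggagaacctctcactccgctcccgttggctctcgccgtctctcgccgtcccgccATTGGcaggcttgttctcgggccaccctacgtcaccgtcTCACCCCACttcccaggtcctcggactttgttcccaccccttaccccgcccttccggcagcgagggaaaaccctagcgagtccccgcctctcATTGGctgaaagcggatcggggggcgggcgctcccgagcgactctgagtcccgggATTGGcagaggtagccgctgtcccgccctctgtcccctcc
Srebf2, chr15:82147019-82147318, plus strand: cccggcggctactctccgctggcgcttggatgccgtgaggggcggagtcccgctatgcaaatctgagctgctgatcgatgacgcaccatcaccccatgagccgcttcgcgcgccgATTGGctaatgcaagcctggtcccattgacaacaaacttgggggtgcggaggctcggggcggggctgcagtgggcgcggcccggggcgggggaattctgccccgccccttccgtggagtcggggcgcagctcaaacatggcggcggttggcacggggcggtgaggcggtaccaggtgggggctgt
Insig1, chr5:28071162-28071461, plus strand: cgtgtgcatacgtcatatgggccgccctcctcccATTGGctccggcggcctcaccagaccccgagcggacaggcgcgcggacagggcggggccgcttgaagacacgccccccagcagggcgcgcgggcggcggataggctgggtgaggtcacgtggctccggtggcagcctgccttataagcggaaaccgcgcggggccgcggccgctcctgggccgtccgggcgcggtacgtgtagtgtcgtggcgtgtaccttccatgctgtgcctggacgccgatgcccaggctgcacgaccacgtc
Cyp46a1, chr12:108334066-108334365, plus strand: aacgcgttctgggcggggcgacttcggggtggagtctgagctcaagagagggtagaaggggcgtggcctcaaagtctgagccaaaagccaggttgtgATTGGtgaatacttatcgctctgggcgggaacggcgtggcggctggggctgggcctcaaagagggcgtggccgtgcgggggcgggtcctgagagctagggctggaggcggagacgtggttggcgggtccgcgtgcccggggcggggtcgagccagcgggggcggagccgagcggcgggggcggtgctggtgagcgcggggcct
The core element was found in 1 of the 5 windows, that of Hmgcs1 at position -137 from the start, and in 1.24% of all 32851 windows. The CCAAT box stood in 5 of 5 member windows, 4 times in that of Hmgcs1, and in 37.4% of all windows. GGGCGG, the GC box, was likewise found in 5 of 5, beside 35.7% of all windows. CACGTG, an E-box, was found in 1 of 5, that of Insig1 at position -101, and in 7.15% of all windows. Among the 19 windows of mevalonate and sterol enzymes these 4 motifs were found in 1, 15, 16 and 3. No match of 1 motif overlapped a match of another. These matches describe the letters of the windows and are no evidence of binding.

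Each aged library had 14605459 to 25339482 reads on genes. One library went against its label. The library labelled JQ1-treated APP replicate 4 held 820 CPM (reads on a gene as a share of all reads on genes, TMM-scaled) of Thy1, whose promoter drives the transgenes, where WT libraries held 841 to 1070 and the other APP libraries 1618 to 2342. Its Gfap, an astrocyte gene that rises in gliosis, was 322 CPM, beside 249 to 321 in WT and 1262 to 5166 in the other APP libraries. Results of JQ1-treated APP mice are therefore given with and without it. Vehicle-treated aged WT replicate 4 held 3147 CPM of the 4 choroid plexus markers in sum, against 23.0 to 142 in the other aged libraries. On the first principal component, with 30.6% of the variance, 4 libraries stood apart, namely those labelled JQ1-treated APP replicates 3 and 4, vehicle-treated APP replicate 4 and aged WT replicate 1. The neuron markers and both CA1 pyramidal markers were above 0 in all groups, which does not tell how alike the dissections were. In aged WT replicate 1 the 3 dentate granule markers summed to 29.8 CPM, beside 105 to 124 CPM in WT replicates 3, 4 and 5. Its Wfs1, a CA1 pyramidal marker, was 160 CPM beside 244 to 344 CPM, and its Fibcd1, the other, 208 CPM beside 175 to 240 CPM. The part of this in the values of the members was not tested.

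Levels of the 7 genes differed widely within the same tissue. On the scale of CPM per kb of exons, the highest mean levels in vehicle-treated aged WT mice were those of Cyp46a1, 64.4 ± 14.4 (SD, n = 4), and Hmgcs1, 45.6 ± 12.6 (SD, n = 4), and the ranges of these neighbours overlapped. Srebf2 followed at 25.4 ± 2.02, Fdft1 at 15.0 ± 0.951, Sqle at 11.7 ± 1.87 and Insig1 at 11.5 ± 1.53 CPM per kb (SD, n = 4 each), and of these neighbours Fdft1 overlapped Sqle in range, and Sqle overlapped Insig1. Idi1 stood lowest at 0.546 ± 0.168 CPM per kb. In vehicle-treated young WT mice, on the FPKM scale (fragments per kb of transcript, scaled to the mapped fragments of the library), Hmgcs1 led with 87.5 ± 9.33 FPKM (SD, n = 8), followed by Cyp46a1 with 63.8 ± 3.48, Srebf2 with 39.3 ± 3.00, Fdft1 with 28.2 ± 1.97, Insig1 with 26.1 ± 2.72, Sqle with 22.8 ± 2.37 and Idi1 with 17.2 ± 2.07 FPKM. The ranges of Hmgcs1, Cyp46a1, Srebf2 and Fdft1 did not touch each other, while Fdft1, Insig1 and Sqle overlapped, as did Sqle and Idi1. The experiments were quantified by different pipelines and were not tested against each other. Between them the ratio of FPKM to CPM per kb was 31.5 for Idi1 and between 0.991 and 2.28 for the other 6 genes, and the cause was not tested. Only 18 to 68 reads were counted on Idi1 per aged library, so its aged values are the least certain of the 7.

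**Figure D1:**
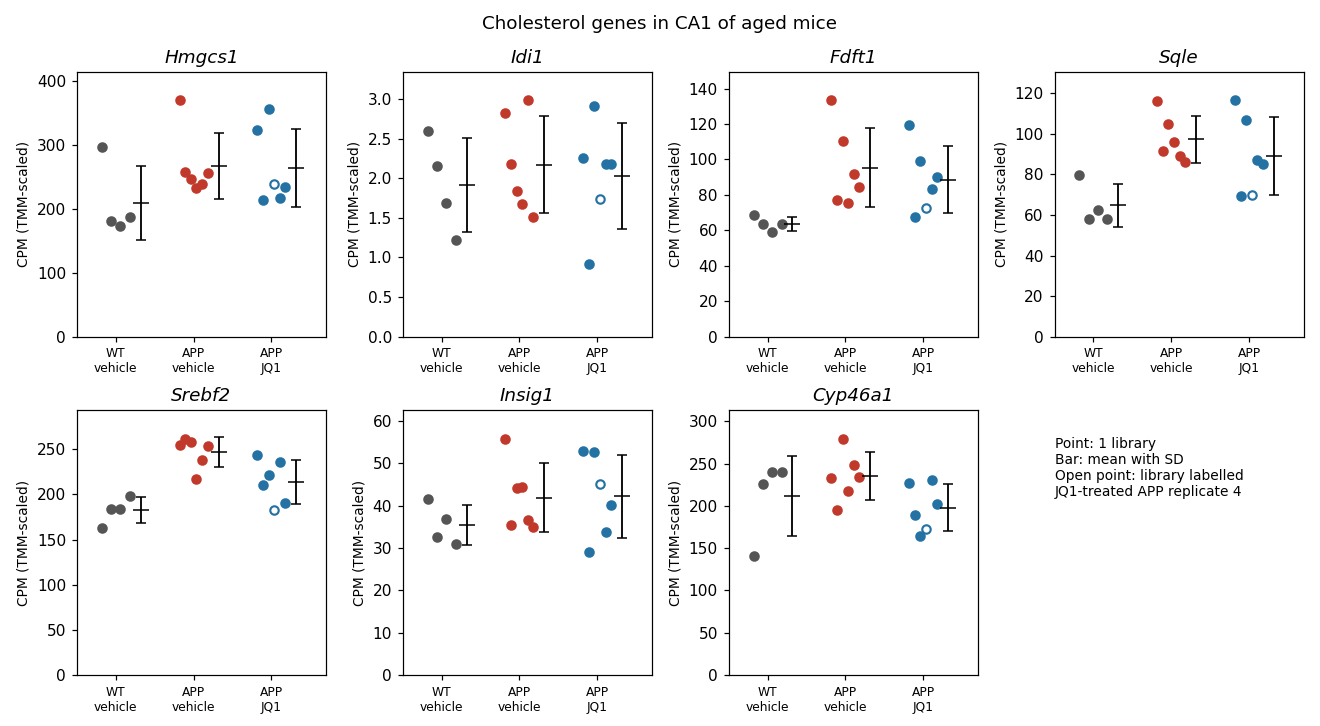
TMM-scaled CPM of each of the 7 genes (vertical axes, from 0) in every aged library, by group, with the mean and SD as bars and the library labelled JQ1-treated APP replicate 4 as an open point. For Fdft1, Sqle and Srebf2 the 6 vehicle-treated APP libraries lie above all 4 WT libraries.

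Vehicle-treated APP mice had more Sqle and Srebf2 RNA than vehicle-treated aged WT mice, by 1.504-fold and 1.356-fold. These 2 of 7 members passed the adjusted p of 0.05, beside 2.57% of all 16962 genes tested, of which 2.49% were higher and 0.0825% lower in APP mice. Fdft1 was separated between the groups to a like extent, without passing the adjusted threshold. The 6 vehicle-treated APP libraries lay above all 4 WT libraries for 3 of 7 members, as did those of 4.94% of all genes. Tests are the quasi-likelihood test of edgeR, adjusted over all genes after Benjamini and Hochberg, with log2 fold changes ± SE, and the exact two-sided permutation test of single genes, which cannot give a p below 0.00476 for 6 against 4 libraries. In bulk tissue, fewer cells of a type and less RNA per cell cannot be told apart.

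Sqle, squalene epoxidase, was measured at 79.9, 58.2, 62.7 and 58.0 CPM in vehicle-treated aged WT replicates 1, 3, 4 and 5. In vehicle-treated APP mice it ranged from 86.1 to 116 CPM around a median of 93.7. The groups did not overlap, WT replicate 1 being the nearest to the APP libraries. The log2 fold change was 0.59 ± 0.144 (adjusted p = 0.0348, edgeR), and the exact p was 0.00476, the smallest possible. The call was lost in 8 of the 16 fits that left out 1 library each, namely vehicle-treated APP replicates 1 to 5 and WT replicates 3, 4 and 5, with adjusted p from 0.0517 to 0.148 and a log2 fold change of 0.53 to 0.70 over the 16 fits.

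Srebf2, the gene of SREBP2, was measured at 163, 184, 183 and 199 CPM in WT and at 217 to 262 CPM, with a median of 254, in vehicle-treated APP mice. All 6 APP libraries lay above the highest WT library. Its log2 fold change was 0.44 ± 0.0919 (adjusted p = 0.0127, edgeR), with an exact p of 0.00476. Without WT replicate 1, 3 or 4 the adjusted p rose to 0.0732, 0.0526 and 0.0518, with a log2 fold change of at least 0.38 throughout. The microRNA gene Mir33 (chr15:82198122-82198190) lies inside Srebf2.

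Fdft1, squalene synthase, was measured at 68.7, 63.4, 58.9 and 63.4 CPM in WT and at 75.4 to 133 CPM, with a median of 88.1, in vehicle-treated APP mice. Here too the groups did not overlap, and the spread was wider in APP (SD 22.5 CPM) than in WT (SD 4.02 CPM). The log2 fold change was 0.59 ± 0.166 (adjusted p = 0.0735, edgeR) and the exact p 0.0143. The last exons of Fdft1 and Ctsb, a lysosomal protease gene, overlap by 774 bp on opposite strands. Ctsb held 10129 to 28535 reads per aged library and rose by 0.58 ± 0.140 (adjusted p = 0.0295, edgeR) in the same comparison. The sources used here do not say whether reads were counted by strand, so reads of the 2 genes in this stretch may not be told apart.

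The other 4 members had higher means in vehicle-treated APP mice, with overlapping groups. Hmgcs1, HMG-CoA synthase, was measured at 296, 182, 173 and 187 CPM in WT and at 232 to 370 CPM, with a median of 251, in APP mice. WT replicate 1 lay above 5 of the 6 APP libraries, and the other 3 WT libraries lay below all of them. The log2 fold change was 0.35 ± 0.182 (adjusted p = 0.393, edgeR) with an exact p of 0.0810, and 0.55 (adjusted p = 0.176, edgeR) without WT replicate 1. Insig1 was measured at 41.5, 32.6, 36.8 and 30.8 CPM in WT and at 34.8 to 55.8, with a median of 40.3 CPM, in APP mice, a log2 fold change of 0.24 ± 0.167 (adjusted p = 0.545, edgeR). Idi1 lay between 1.23 and 2.59 CPM in WT and between 1.52 and 2.98 CPM in APP mice, with a log2 fold change of 0.18 ± 0.306 (adjusted p = 0.831, edgeR). Its interval, -0.46 to 0.83, covers the changes seen for Sqle, Fdft1 and Srebf2. Cyp46a1 was measured at 141, 226, 240 and 240 CPM in WT and at 196 to 280, with a median of 234 CPM, in APP mice. WT replicate 1 was the lowest of these libraries, and the log2 fold change of 0.15 ± 0.141 (adjusted p = 0.677, edgeR) turned to -0.01 without it.

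**Figure D2:**
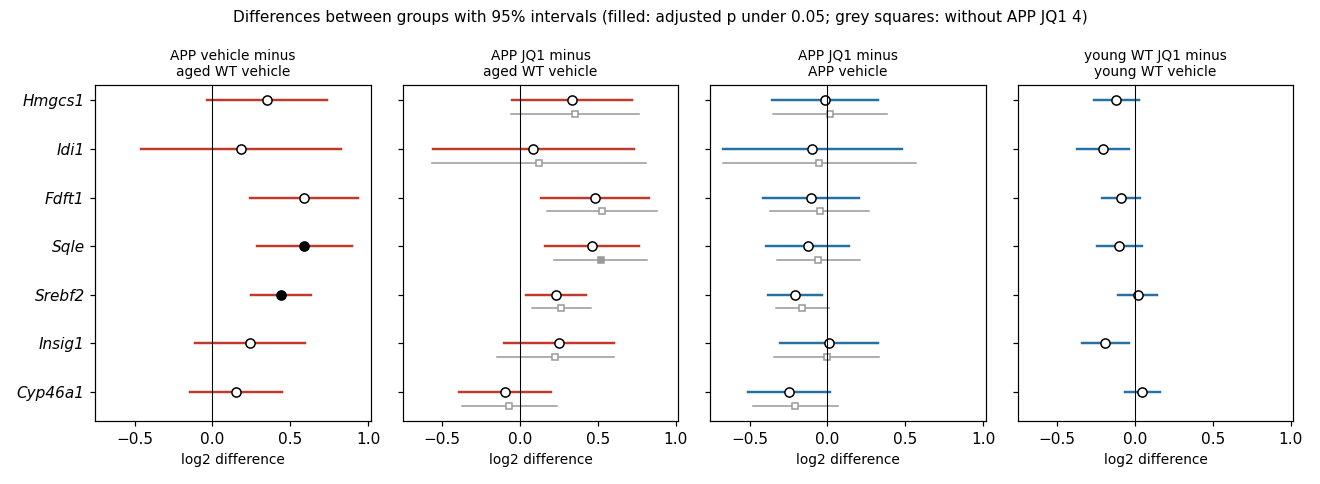
Log2 differences of the 7 genes (horizontal axes) with 95% confidence intervals in the 4 comparisons, filled where the adjusted p is under 0.05; grey squares leave out the library labelled JQ1-treated APP replicate 4. Sqle (0.59) and Srebf2 (0.44) are filled for vehicle-treated APP against WT, and Sqle (0.52) without that library for JQ1-treated APP against WT.

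The rest of the pathway was read from lists that hold these 7 genes among 53 tested. In vehicle-treated APP against WT mice, 9 of the 53 rose and 0 fell, 45 had a positive log2 fold change, and the median was 0.24, beside 8752 of 16962 genes positive and a median of 0.01 over all genes. All 8 mevalonate enzymes and all 13 sterol enzymes had positive values, with medians of 0.37 and 0.24. Of the 11 SREBP regulators 5 were positive, and Srebf2 and its homologue Srebf1, at 0.65 (adjusted p = 0.0387, edgeR), rose. Of the 8 enzymes that turn over cholesterol, among them Cyp46a1, only Ch25h, the cholesterol 25-hydroxylase, passed the test, at 2.49 (adjusted p = 0.0438, edgeR), from 0.404 ± 0.282 CPM in WT (SD, n = 4) to 2.32 ± 1.01 CPM (SD, n = 6). Ch25h had only 10, 3, 5 and 18 reads in WT replicates 1, 3, 4 and 5. Of the 9 genes of LXR and sterol efflux, Abca1, a cholesterol exporter, rose by 0.74 (adjusted p = 0.0436, edgeR), Apoe, the main lipoprotein component of the brain, by 1.04 (adjusted p = 0.00828, edgeR), and Npc2, which binds cholesterol in lysosomes, by 1.07 (adjusted p = 0.00879, edgeR). The count of 9 ranged from 4 to 10 when single libraries were left out, and none of the 53 fell in any of these fits. Of these 16 fits, Ch25h passed in 5 and Srebf1 and Abca1 in 7 each, while Apoe and Npc2 passed in all 16. Of the 53 pathway genes 24 had an unadjusted p under 0.05, beside 14.4% of all genes, and 3 of the 24 were lower, beside 5.01% of all genes, while DESeq2 called 0 lower.

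Glial markers moved with these differences. The 5 astrocyte markers summed to between 1214 and 1302 CPM in WT and between 2258 and 6326 CPM in vehicle-treated APP mice, with Gfap higher by 3.18 (adjusted p = 0.00993, edgeR). Most of that rise was Gfap, since the other 4 summed to 893 to 1054 CPM in WT and 996 to 1304 CPM in APP mice. None of these 4 passed the adjusted threshold, and Gja1 was at -0.06 (adjusted p = 0.910, edgeR). The 5 microglia markers summed to 195 to 227 CPM in WT and 355 to 490 CPM in APP mice. All 5 had a positive log2 fold change and 2 passed the adjusted threshold, while P2ry12 and Tmem119 overlapped between the groups. The 5 neuron markers were lower in sum, with 10380 to 11350 CPM in WT and 8649 to 9991 CPM in APP mice. Single neuron markers were split, 2 of the 5 having a positive log2 fold change, and 0 passed the adjusted threshold. The 2 CA1 pyramidal markers overlapped, with sums of 367.3 to 583.5 CPM in WT and 423.8 to 531.0 CPM in APP mice. The part of these shifts in the values of Sqle, Srebf2 and the other members was not tested.

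**Figure D3:**
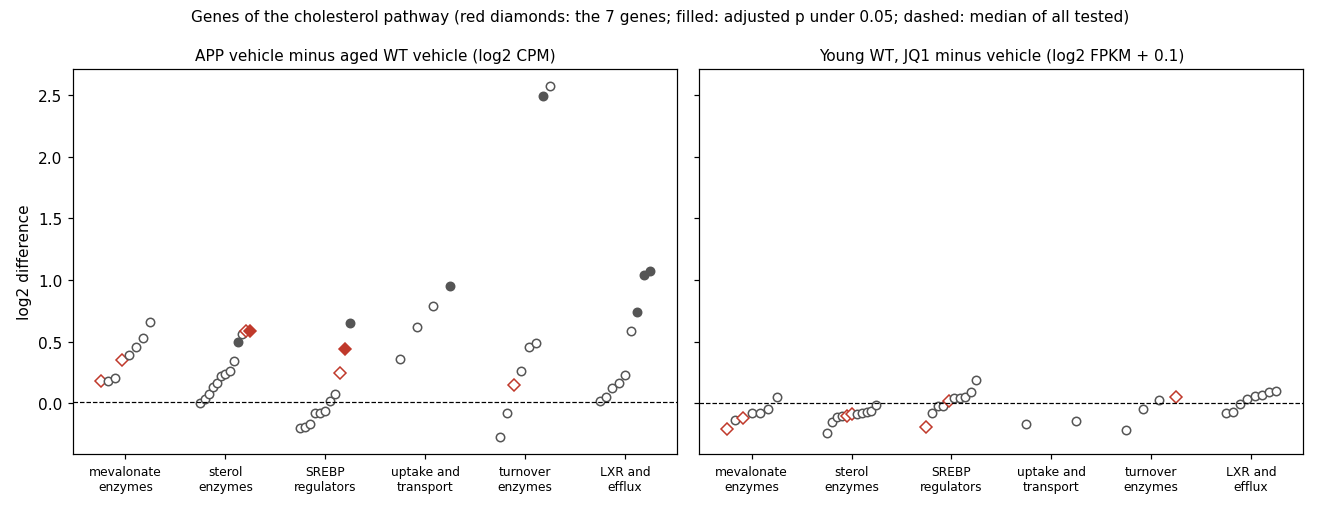
Log2 differences of the tested genes of 6 cholesterol lists (points; red diamonds are the 7 genes; filled where the adjusted p is under 0.05) for vehicle-treated APP against aged WT mice (left) and for JQ1 against vehicle in the young mice (right), with the median of all tested genes dashed. On the left 9 of 53 genes are filled, all above 0, and on the right 0 of 42.

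Across the 21 mevalonate and sterol enzymes taken library by library, 17 to 21 lay above their WT mean in each vehicle-treated APP library. The corresponding counts were 12 to 21 in JQ1-treated APP libraries, with 12 in the library labelled replicate 4 and also in replicate 2. In WT replicates 3, 4 and 5 they were 6, 7 and 4, but 17 in WT replicate 1. The counts varied within groups as well as between them.

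JQ1-treated APP mice were next compared with the same 4 WT libraries, which this comparison shares with the one above. No member passed the threshold in edgeR, beside 2.06% of all genes (1.93% higher, 0.13% lower). At an unadjusted p under 0.05 there were 3 of 7, Fdft1, Sqle and Srebf2, beside 14.1% of all genes (4.46% being lower), and 0 passed with DESeq2. Sqle ranged from 69.4 to 117 CPM, with a median of 85.9, and Fdft1 from 67.5 to 119, with a median of 86.9 CPM. For Sqle 4 and for Fdft1 5 of the 6 libraries lay above all WT libraries, so neither was separated, beside 2.55% of all genes with all JQ1-treated APP libraries above WT. The log2 fold changes were 0.46 ± 0.144 for Sqle (adjusted p = 0.115, edgeR, exact p = 0.0429) and 0.48 ± 0.165 for Fdft1 (adjusted p = 0.161, edgeR, exact p = 0.0190). Srebf2 ranged from 183 to 244 CPM, with a median of 216, and its log2 fold change of 0.23 ± 0.0914 had an adjusted p of 0.241 (edgeR) and an exact p of 0.0619. Values for the remaining members were 0.33 for Hmgcs1, 0.25 for Insig1, 0.09 for Idi1 and -0.10 for Cyp46a1, with adjusted p from 0.445 to 0.938 (edgeR).

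Without the library labelled JQ1-treated APP replicate 4, 3.84% of genes were called, and Sqle, at 0.52 ± 0.141 (adjusted p = 0.0491, edgeR, exact p = 0.0397), was the 1 member that passed. Fdft1 was then at 0.53 (adjusted p = 0.107, edgeR) and Srebf2 at 0.27 (adjusted p = 0.129, edgeR). Of the 53 pathway genes, 5 rose with all libraries, among them Abca1 by 1.03, Apoe by 0.90 and Npc2 by 0.90, and 0 fell. The pathway median was 0.23. Without the library labelled JQ1-treated APP replicate 4, 8 of 52 rose, with Sqle, Stard4 and Ch25h added to the 5. The count was 0 without WT replicate 3, 4 or 5, and 2 without WT replicate 1 or JQ1-treated APP replicate 1. It was 1 with the replicate number as a block, and 9 with that block and correction for GC content and length. In these JQ1-treated APP mice the astrocyte markers summed to 1462 to 5713 CPM, the microglia markers to 209 to 553 and the neuron markers to 8084 to 10680 CPM. The library labelled replicate 4 had the lowest of these astrocyte and microglia sums. Without Gfap the astrocyte markers summed to 1099 to 1637 CPM (median 1416), beside 893 to 1054 CPM in WT and 996 to 1304 CPM (median 1138) in vehicle-treated APP mice.

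JQ1 was compared with vehicle within APP mice to ask whether the drug changed these genes under amyloid pathology. None of the 7 members passed the threshold in edgeR, beside 1.08% of all genes (0.619% higher, 0.466% lower). At an unadjusted p under 0.05 there was 1 of 7, Srebf2, where 17.6% of all genes lay under that p, and 0 passed with DESeq2. Srebf2 was measured at 244, 210, 221, 183, 236 and 191 CPM in the libraries labelled JQ1-treated APP replicates 1 to 6, beside 217 to 262 CPM with vehicle. All 6 lay below the median of 254 CPM with vehicle, 3 of them below the lowest vehicle library, and the groups overlapped. Its log2 fold change was -0.21 ± 0.0813 (adjusted p = 0.194, edgeR), with an exact p of 0.0260 where 0.00216 is the smallest possible for 6 against 6. Without the library labelled replicate 4, which was the lowest, the values were -0.16 (adjusted p = 0.394, edgeR) and an exact p of 0.0498. The value was 0.02 (adjusted p = 0.943, edgeR) after correction for GC content and length. GC content in Srebf2 exons is 57.9% and in Cyp46a1 exons 58.5%, the highest of the 7 genes.

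Cyp46a1 was measured at 227, 189, 164, 172, 231 and 203 CPM in the same 6 libraries, beside 196 to 280 CPM with vehicle. Again all 6 lay below the vehicle median of 234 CPM, 3 of them below all vehicle libraries. The log2 fold change was -0.25 ± 0.126 (adjusted p = 0.319, edgeR, exact p = 0.0498), and -0.21 (adjusted p = 0.514, edgeR, exact p = 0.0952) without the library labelled replicate 4. With the correction for GC content and length it was -0.03 (adjusted p = 0.949, edgeR).

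The 5 remaining members lay close together with and without JQ1. Hmgcs1 ranged from 214 to 357 CPM, with a median of 236, under JQ1 and from 232 to 370 CPM, with a median of 251, under vehicle. JQ1-treated replicates 1 and 3 and vehicle-treated replicate 1 stood well above the other libraries of their groups. Its log2 fold change was -0.02 ± 0.161, with a 95% interval of -0.36 to 0.32. Insig1 lay at 0.01 (interval -0.30 to 0.32), Idi1 at -0.10 (-0.67 to 0.48), Fdft1 at -0.11 (-0.41 to 0.20) and Sqle at -0.13 (-0.39 to 0.14), with adjusted p from 0.648 to 0.981 for these 5 (edgeR). Without the library labelled replicate 4 the values of the 5 were between -0.06 and 0.01, with 0 members called beside 0.431% of genes. A change of the size that Sqle shows between vehicle-treated APP and WT mice lies outside the interval of Sqle here, in either direction.

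Of the 53 pathway genes, 0 were called in either direction with JQ1 in APP mice, 23 were positive, and the median was -0.05, beside -0.00 over all genes. Among the largest positive values was 0.53 for Cyp39a1, an oxysterol hydroxylase (adjusted p = 0.294, edgeR). The largest negative ones were -0.47 for Npc1l1, a sterol transporter (adjusted p = 0.467, edgeR), and -0.39 for Nr1h2, which encodes the oxysterol receptor LXR-beta (adjusted p = 0.0632, edgeR). Of the 53, 6 had an unadjusted p under 0.05, 5 of them lower, beside 17.6% of all genes, 9.19% being lower, so the pathway did not exceed the share of all genes. Without the library labelled JQ1-treated APP replicate 4, 25 of 52 pathway genes were positive with a median of -0.01 and 0 were called. Cyp39a1 was then at 0.47 (adjusted p = 0.475, edgeR), Npc1l1 at -0.32 (adjusted p = 0.701, edgeR) and Nr1h2 at -0.35 (adjusted p = 0.142, edgeR). DESeq2 called 1, Nr1h2, at -0.38 (adjusted p = 0.0134), and edgeR called it too, at -0.37 (adjusted p = 0.0314), with 1 surrogate variable. Without JQ1-treated APP replicate 5, vehicle-treated APP replicate 2 or WT replicate 1 its adjusted p was 0.0477, 0.0358 and 0.0265 (edgeR). Nr1h2 was not called in the other fits without 1 library, nor after correction for GC content and length.

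In young WT mice, JQ1 against vehicle left all 7 members without a call, beside 0.00543% of the 18420 loci tested. Tests are limma on log2(FPKM + 0.1), a scale that understates changes of low genes, with the exact permutation test, whose smallest p is 0.000155 for 8 against 8. At an unadjusted p under 0.05 there were 2 of 7 members, Insig1 and Idi1, beside 4.65% of all loci. Insig1 was measured at 23.2 to 32.1 FPKM, with a median of 25.7, under vehicle and at 19.0 to 25.9, with a median of 23.1 FPKM, under JQ1. Of the 8 JQ1 libraries 4 lay below all vehicle libraries and 1 above the vehicle median, and vehicle replicate 5 was the highest of all. The log2 difference was -0.19 ± 0.0704 (unadjusted p = 0.0152, adjusted p = 0.981, limma), with an exact p of 0.0163. Idi1, at 14.3 to 21.1 FPKM with a median of 17.3 under vehicle and 12.3 to 17.6 with a median of 15.1 FPKM under JQ1, had a log2 difference of -0.20 ± 0.0787 (unadjusted p = 0.0184, adjusted p = 0.981, limma) and an exact p of 0.0247. Here 3 JQ1 libraries lay below all vehicle libraries and 1 above the vehicle median.

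Hmgcs1 had a median of 87.6 FPKM, from 75.1 to 99.3, under vehicle and of 81.3, from 70.4 to 88.8, under JQ1, a log2 difference of -0.12 ± 0.0683 (adjusted p = 0.981, limma). Sqle was at 20.01 to 27.8 FPKM and 17.9 to 24.7 FPKM, with a log2 difference of -0.10, and Fdft1 at 25.6 to 32.0 and 22.3 to 30.3 FPKM, with -0.09. The Fdft1 locus of the young libraries, chr14:63122462-63177793, spans all of Ctsb (chr14:63122462-63145923). Whether reads of Ctsb entered any young Fdft1 value was not tested. Srebf2, at 35.2 to 42.2 and 34.2 to 43.4 FPKM, had a log2 difference of 0.02 (interval -0.11 to 0.14), and Cyp46a1, at 56.8 to 68.9 and 57.1 to 73.4 FPKM, one of 0.05 (interval -0.06 to 0.16). All groups overlapped.

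**Figure D4:**
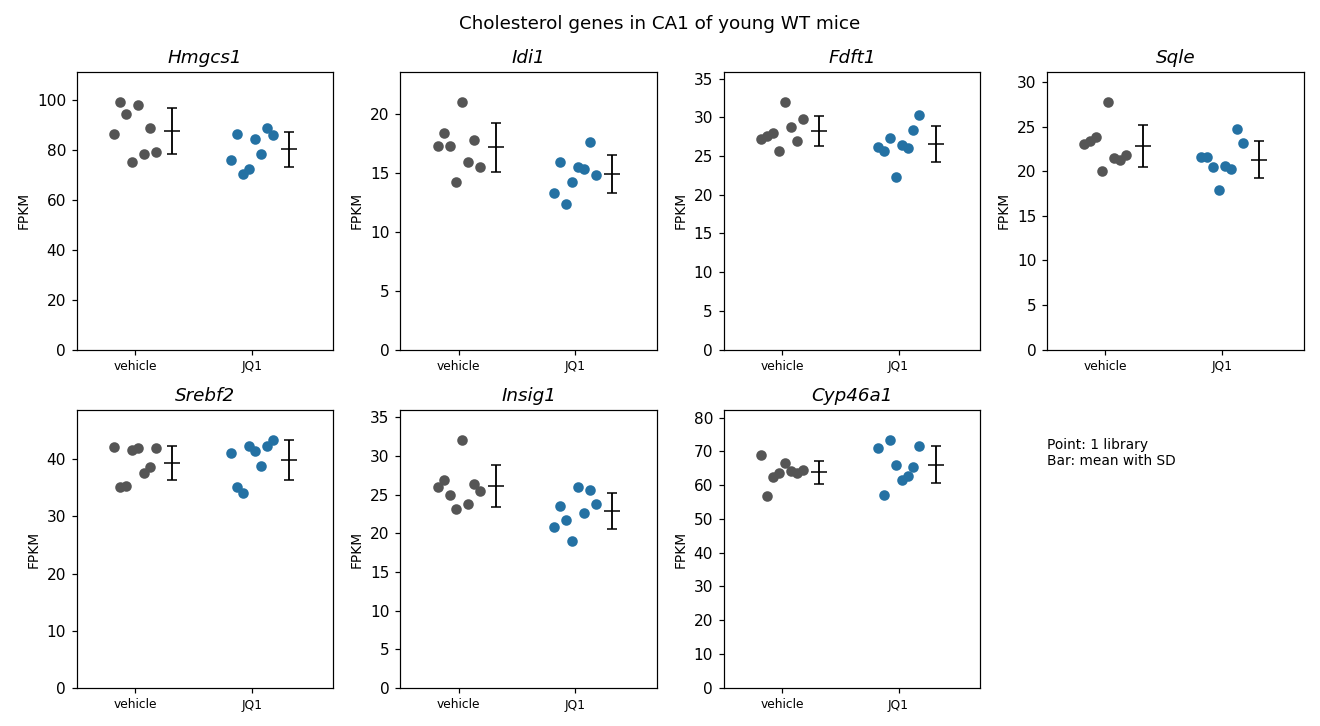
FPKM of each of the 7 genes (vertical axes, from 0) in the 8 vehicle and 8 JQ1 libraries of young WT mice, with the mean and SD as bars. The groups overlap for all 7 genes, with the lowest exact p for Insig1 (0.0163) and Idi1 (0.0247).

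In the same comparison 14 of 42 pathway genes tested were positive, with a median of -0.07 beside 9420 of 18420 loci and a median of 0.00. Of the mevalonate enzymes 1 of 7 and of the sterol enzymes 0 of 11 were positive, with medians of -0.08 and -0.09, and 0 of the 42 passed the threshold in limma, 5 of them having an unadjusted p under 0.05, beside 4.65% of all loci. The 4 astrocyte markers tested summed to 383 to 452 FPKM under vehicle and 330 to 433 FPKM under JQ1, and the 5 neuron markers to 2415 to 2672 and 2458 to 2852 FPKM. The 4 oligodendrocyte markers tested summed to 1026 to 2006 FPKM under vehicle and 1035 to 1816 FPKM under JQ1, and 0 of the 4 had a positive log2 difference, with a median of -0.17. The part of these markers in the values of the enzymes was not tested. The largest positive values were 0.19 for Srebf1 (unadjusted p = 0.00122, adjusted p = 0.981, limma) and 0.10 for Abcg4, a sterol exporter. The largest negative ones were -0.24 for Msmo1, a sterol methyl oxidase (unadjusted p = 0.0286, limma), and -0.21 for Cyp27a1, the sterol 27-hydroxylase. The 18 enzymes share their libraries, and a single library, vehicle replicate 5, had 17 of them above the vehicle mean.

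Apart from group differences, Hmgcs1, Idi1, Fdft1, Sqle and Insig1 varied together from library to library. After removal of the group means, all 10 pairs among them were positively correlated over the 16 aged libraries, with Pearson's r from 0.592 to 0.82 (median 0.704), and over the 16 young libraries, with r from 0.357 to 0.875 (median 0.768). Of these, 7 and 8 pairs passed an adjusted permutation p of 0.05 over the 21 pairs of each experiment. The grouping matches no list above, as it holds the regulator Insig1 but not the regulator Srebf2. It coincides with the split in the correlations themselves, so these counts describe that split and do not test it. Over all 21 pairs, 16 were positive in aged mice (median r 0.532) and 17 in young mice (median r 0.357). How often pairs of other genes correlate as strongly was not tested. Without the 4 aged libraries that stood apart, r of the 10 pairs ranged from 0.371 to 0.95 (median 0.808, n = 12). Without the 2 libraries farthest from the median of the gene named first, r of the 10 pairs ranged from 0.354 to 0.752 in aged and from 0.279 to 0.81 in young mice. By rank none of the 21 aged pairs passed, the lowest adjusted permutation p of Spearman's rho being 0.0619. These genes were measured in the same libraries, so depth, composition and dissection are shared by all of them.

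Fdft1 and Sqle, which catalyse consecutive steps, had r = 0.82 (adjusted permutation p = 0.00252) and rho = 0.706 in aged mice, and r = 0.72 without the 2 libraries farthest from the median of Fdft1. In young mice the pair had r = 0.796 (adjusted permutation p = 0.00332), rho = 0.626 and r = 0.723 without the 2 farthest. Hmgcs1 and Idi1, both of the mevalonate branch, had r = 0.875 (adjusted permutation p = 0.00084) and rho = 0.888 (adjusted permutation p = 0.00105) in young mice, and r = 0.81 without the 2 farthest. In aged mice, where Idi1 had few reads, this pair did not pass, with r = 0.602 (adjusted permutation p = 0.0542), rho = 0.482, r = 0.494 without the 2 farthest and r = 0.371 without the 4 libraries that stood apart. Sqle and Insig1 had r = 0.784 in aged mice, 0.95 without the 4 libraries, and r = 0.788 in young mice.

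For Srebf2 and Cyp46a1 no pair passed the threshold. The 5 pairs of Srebf2 with these genes had r from -0.083 to 0.409 in aged and from -0.072 to 0.132 in young mice. The 6 pairs of Cyp46a1 had r from -0.513 to 0.532 and from -0.402 to 0.38. Without the 4 aged libraries all 6 pairs of Cyp46a1 were positive, from 0.061 to 0.551. These coefficients were not tested against those among the other 5 genes.

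**Figure D5:**
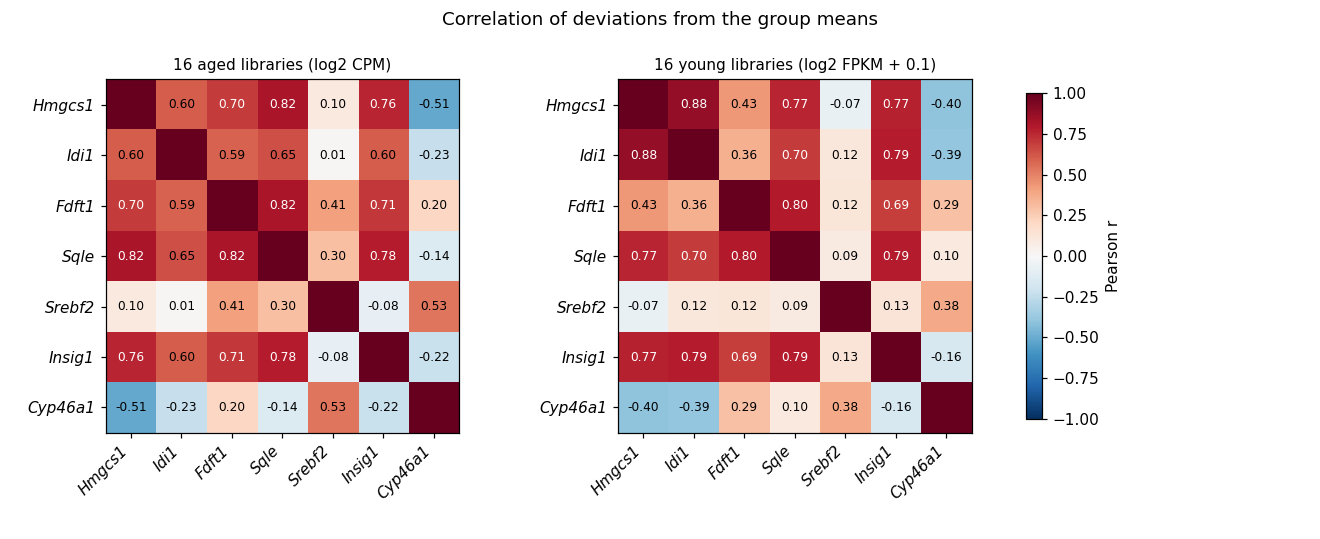
Pearson's r between the 7 genes (colour and number in each cell) over 16 aged libraries (log2 CPM) and 16 young libraries (log2(FPKM + 0.1)), after removal of group means. Cells among Hmgcs1, Idi1, Fdft1, Sqle and Insig1 run from 0.592 to 0.82 and from 0.357 to 0.875, and those of Srebf2 or Cyp46a1 from -0.513 to 0.532 and from -0.402 to 0.38.

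The genes most like each member over the 16 aged libraries, by the same measure and among all genes tested, differed between members. For Fdft1 they were Fdps (r = 0.927), Nsdhl (0.904) and Mvd (0.882), and for Sqle Fdps (0.926), Acat2 (0.893) and Msmo1 (0.881), which all encode enzymes of the pathway. For Insig1 they included Acat2 (0.898) and Rab39 (0.896), for Hmgcs1 Atp6v1a (0.869) and 9530068E07Rik (0.863), and for Idi1 they were Zfp983 (0.867), Mfsd9 (0.861) and Cdnf (0.837). For Srebf2 they were Cep131 (0.869), Wdr81 (0.868) and Gaa (0.865), and for Cyp46a1 Nr1h2 (0.965), Gnb2 (0.965) and Ptov1 (0.963). Of the other members, Fdft1, Hmgcs1 and Insig1 ranked 8, 10 and 17 for Sqle among 16961 genes. Sqle in turn ranked 10 for Hmgcs1, 28 for Fdft1 and 46 for Insig1, and Insig1 ranked 60 for Hmgcs1. Idi1 ranked lower, at 190 for Sqle, 649 for Hmgcs1, 689 for Fdft1 and 757 for Insig1. Hmgcs1 ranked 82 for Insig1 and 218 for Fdft1. In young mice Hmgcs1 ranked 1 for Idi1 among 18419 loci and Idi1 ranked 2 for Hmgcs1, behind Mr1 (0.878). Fdft1, by contrast, ranked 1696 for Hmgcs1 and 2420 for Idi1 in young mice. Other leading genes there were Pcx (0.942) for Srebf2, Cbr1 (0.911) for Cyp46a1, Cplx3 (0.897) for Sqle, Rp9 (0.866) for Fdft1 and Slc39a12 (0.823) for Insig1.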

How the data were processed

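RNA-Seq of CA1 tissue was analysed from the processed values of 16 aged and 16 young libraries. 33 samples are labelled, and vehicle-treated aged WT replicate 2 was not analysed here. Reads came from a HiSeq2000 and, per the submitters' processing notes, CASAVA 1.8.2. The authors used STAR for alignment to mm10 and HTSeq for counting, and the deposited counts per gene are whole numbers without normalization. The deposited FPKM of the young libraries come from Cufflinks and Cuffdiff, and TopHat is also named in the notes. Because FPKM hold no counts, the depth of the young libraries is unknown.

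Of the 38355 genes of the count files, 36602 matched a GENCODE M21 symbol and held 99.8% of the counts. The HTSeq summary lines, among them reads without a feature (15.4 to 26.9% of uniquely aligned reads), stayed out of library sizes. Groups were taken from the labels. The 7 genes and the lists were chosen with earlier results of these data known.

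Counts were normalized with TMM (factors 0.963 to 1.036), filtered with filterByExpr (16962 genes) and tested in 1 fit of the 3 aged groups with the quasi-likelihood test of edgeR 4.0.16 in R 4.3.3, with Benjamini-Hochberg adjustment over all genes and a threshold of 0.05. FPKM were tested with limma 3.58.1 (trend, robust) after adding 0.1 and taking log2, keeping the 18420 loci that reached 0.5 FPKM in 8 or more of 16 libraries. Single members were also tested with exact two-sided permutation tests. Correlations used deviations from group means and 100000 permutations within groups, adjusted over 21 pairs. No member was filtered out, and the fits were checked on simulated data. The members were named in every comparison. Of the other pathway genes, those past the threshold were named, or else the 2 highest and the 2 lowest. For likeness the 3 highest were named. Some genes that these rules choose are counted but not reported here by name.

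Alternatives were DESeq2 1.42.0, RLE factors, other filters and pseudocounts, a fit of 2 groups, the replicate number as a block, 1 surrogate variable (sva 3.50.0), corrections for GC content and exon length, limma without trend, rescaling, and leaving out each library. Fits without the 4 libraries apart on the first principal component and without the libraries labelled JQ1-treated APP replicate 4 and aged WT replicate 4 were chosen after the data were seen. Exon length and GC content came from GENCODE, promoters from RefSeq.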

Additional observations from a re-analysis of the deposited data

Results flagged for a closer look

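Among 35 groups of values of the 7 genes, 4 held a library far from the others by Dixon's ratio, the gap to the nearest library divided by the range of the group. Chance flags about 1 in 20 groups. Vehicle-treated aged WT replicate 1 was the highest for Hmgcs1 (ratio 0.849) and the lowest for Cyp46a1 (ratio 0.882), and it is 1 of the 4 libraries that stood apart on the first principal component. Vehicle-treated APP replicate 1 was the highest for Hmgcs1 (ratio 0.78). Without it the log2 fold change of Hmgcs1 in vehicle-treated APP against WT mice was 0.24 (adjusted p = 0.574, edgeR). In young WT mice, vehicle replicate 5 was the highest for Insig1 (ratio 0.55), and without it the log2 difference of Insig1 under JQ1 was -0.15.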

How the results depend on the processing

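The calls of Sqle and Srebf2 in vehicle-treated APP against WT mice rest on few libraries, as given above, and 2 members were called there with all libraries. With the replicate number as a block Srebf2 had an adjusted p of 0.0614 (edgeR), and without the libraries labelled JQ1-treated APP replicate 4 and aged WT replicate 4 Sqle had one of 0.0701 (edgeR), leaving 1 member. Of the 53 pathway genes 5 rose with the block, in place of 9. Fdft1 passed with DESeq2 (adjusted p = 0.0231), with the 2 groups fitted alone (0.0376), and with the block (0.0477). Leaving out 1 library gave 0 to 3 members. For JQ1-treated APP against WT the members called were 1 after GC content and length correction, 3 with the block and that correction, 1 without the 4 libraries apart, and 0 to 1 without single libraries.

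Genes called for JQ1 against vehicle in APP mice were 184, and 749 with DESeq2, 87 with the block, 507 with 1 surrogate variable, 43 after GC content and length correction, 36 with the block and that correction, 76 without the 4 libraries, 57 without the libraries labelled JQ1-treated APP replicate 4 and aged WT replicate 4, and 65 to 446 without single libraries. For vehicle-treated APP against WT they were 436, and 798 with DESeq2, 679 with the 2 groups alone, 35 with the block, 72 with the block and correction, and 154 to 601 without single libraries. For JQ1-treated APP against WT they were 349, and 800, 227, 21 and 59 in these 4 fits, 585 with the surrogate variable, 667 without the 4 libraries, and 11 to 651 without single libraries. In young mice 1 locus was called, 0 without a filter or with the block, and 0 to 2 without single libraries.

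Several values changed sign. For JQ1 in APP mice Srebf2, at -0.21 with an unadjusted p of 0.0197 (edgeR), turned to 0.023 after GC content and length correction and to 0.019 with the block and correction. In the same comparison Insig1 was at -0.040 with the surrogate variable, -0.044 after GC content and length correction, -0.054 with the block and correction, -0.086 without the 4 libraries and -0.0049 without the library labelled replicate 4 and WT replicate 4, where Hmgcs1 was at 0.013. After correction, without and with the block, Cyp46a1 of JQ1-treated APP against WT was at 0.0031 and 0.034. Over fits without single libraries JQ1 against vehicle ranged from -0.12 to 0.098 for Hmgcs1, -0.058 to 0.11 for Insig1, -0.22 to 0.055 for Idi1 and -0.20 to 0.012 for Fdft1. Likewise Cyp46a1 ranged from -0.013 to 0.21 in vehicle-treated APP against WT, Idi1 from -0.074 to 0.26 in JQ1-treated APP against WT, and young Srebf2 from -0.0041 to 0.049. The cause of these changes was not tested, beyond fewer libraries where some were left out.

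Same-numbered libraries did not deviate together, with r from -0.471 to 0.342 over 14 aged pairs and -0.07 to 0.104 over 8 young pairs, and 4 of 16 libraries in each experiment correlated best with their own number. The depth of the aged libraries limits Idi1, at 18 to 68 reads, more than the other 6 genes.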
